A study of Mus musculus with 4 samples.

Results

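The complement genes described here are 9 genes of the pathway that these mouse fibroblasts could transcribe: the proteases C1s, C1ra and Masp1, the thioester proteins C4b and C3, the alternative pathway protease Cfb, the soluble inhibitor Serping1 and the membrane regulators Cd55 and Cd59a. Their probes were found by gene symbol on the array, old or current; the genes themselves were chosen with earlier results of these data known. The 9 genes had 14 probes, out of 49826 genes and transcripts and 61307 probes on the array. All 9 genes and 13 of the 14 probes passed a filter on dim spots, which 24658 genes and transcripts passed in all.

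RNA came from C3H10T1/2, a mouse embryo fibroblast line, after chemical transformation. Every sample, controls included, had received MCA (3-methylcholanthrene, a polycyclic carcinogen) at 2.5 µg/ml for 2 days and then the phorbol ester TPA at 100 ng/ml over 2 weeks, and had been kept in plain medium for another 4 weeks. The 2 untreated samples had no further exposure, and the 2 DEM samples were exposed to 0.25 mM diethyl maleate, a compound that depletes glutathione. The comparison asks how DEM exposure altered transcript levels in the transformed cells. The sources used here do not give the length of the DEM exposure, and untransformed C3H10T1/2 cells were not analysed here. Nothing in the labels says that the samples of a group were separate cultures, so the spread behind each p-value is that between these particular samples and may be technical.

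Complement is a cascade of blood and tissue proteins that marks and lyses targets. In the classical pathway C1r activates C1s, and C1s cleaves C4 and C2. In the lectin pathway MASP proteases start the cascade, and in the alternative pathway factor B joins C3b to form the convertase that cleaves more C3. All routes meet at C3, and host cells limit them with soluble and membrane-bound inhibitors. The liver makes most circulating complement, but fibroblasts are a known local source of C3, C1r, C1s, factor B and C1 inhibitor.

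Values are log2 processed signal after subtraction of each array's own 75th percentile, called the level below. A level compares arrays for 1 probe and does not compare genes, because probes differ in brightness. All 4 arrays were on 1 slide and scanned together, but each group occupied its own row of the slide, so row and group cannot be told apart. The untreated arrays had a 75th percentile of processed signal of 701 and 747, above the 449.9 and 412 of the DEM arrays, and 47.8% to 52.7% of spots were well above background. Across all non-control probes without outlier marks, dim ones included, r was 0.987 between the untreated arrays, 0.984 between the DEM arrays and 0.964 to 0.968 between groups. Fibroblast markers were present: 9 of 10, among them Col1a1, Col1a2, Pdgfra and Vim, were well above background on all 4 arrays.

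With DEM, 7 of the 9 complement genes fell, 0 rose and 2 did not pass the test (limma, Benjamini-Hochberg adjusted p under 0.05 over all 24658 genes tested). Among all genes tested, 11.8% were called lower and 15.5% higher, 27.2% in all. C1s, C1ra, C3, Cfb, Serping1, Cd55 and Cd59a fell, while C4b and Masp1 did not pass. In 8 of the 9 genes both DEM arrays lay below both untreated arrays, an arrangement found in 26% of all genes tested; Masp1 was the exception. The opposite arrangement, in 42.4% of all genes, occurred in 0 of the 9. The median log2 change (DEM minus untreated) was -2.01 over the 9 genes and 0.16 over all genes tested. In a bulk sample, fewer expressing cells and less RNA per cell cannot be told apart. The count of 7 was 5 without untreated replicate 1, 5 without untreated replicate 2 and 5 when arrays were scaled on spike-in probes.

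**Figure D1:**
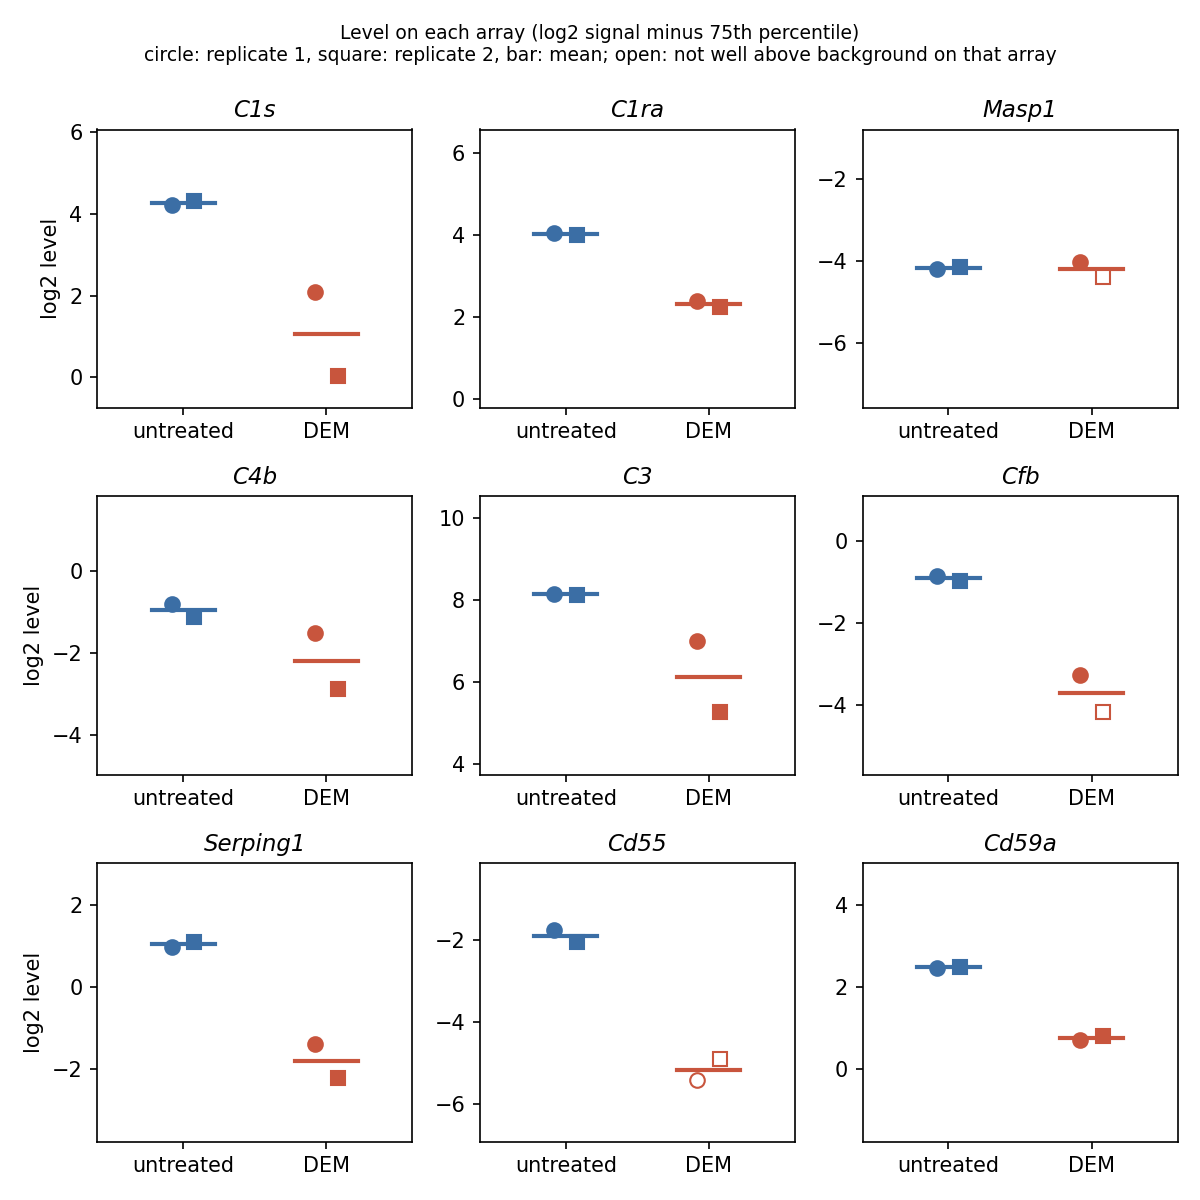
Level of each of the 9 complement genes on each array (log2 processed signal minus the array's 75th percentile), with the untreated and DEM groups on the x axis, circles for replicate 1, squares for replicate 2 and bars for the group mean. Open symbols were not well above background on that array. The DEM points lie below the untreated points in 8 panels, and the groups overlap for Masp1.

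C1s, the protease that cleaves C4 and C2, had levels of 4.21 and 4.30 without DEM and of 2.09 and 0.03 with it. The DEM arrays were both lower and lay far apart from each other. Its log2 change was -3.20 ± 0.62 (SE, n = 2 per group), a 9.16-fold lower level (limma, adjusted p = 0.0154). Without untreated replicate 1 the adjusted p was 0.0736, and without untreated replicate 2 it was 0.0826, while the change was -2.16 without DEM replicate 2 and -4.23 without DEM replicate 1. A second C1s probe gave 1.80 and 1.96 untreated against -0.37 and -2.78 with DEM, a change of -3.46 ± 0.71 (SE; adjusted p = 0.0182, limma over all kept probes). That probe is printed here because it shares a run of 11 bases, in capitals, with the probe of the neighbouring paralog C1s2, the longest run either C1s probe shared with it.
C1s second probe: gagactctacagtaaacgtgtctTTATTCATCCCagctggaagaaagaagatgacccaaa

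C1ra, the protease that activates C1s, was at 4.07 and 4.01 untreated and at 2.40 and 2.26 with DEM. Replicates were close in both groups and the groups did not overlap. The log2 change was -1.71 ± 0.16 (SE), or 3.27-fold lower (limma, adjusted p = 0.00229). Scaling on spike-in probes gave a change of -1.87 with an adjusted p of 0.122 (limma). The other C1ra probe, named C1r on the array, was dimmer and gave -1.40 and -0.997 untreated against -3.01 and -3.61 with DEM, a change of -2.11 ± 0.31 (SE). Neither C1ra probe shared a run of more than 5 bases with the probes of the paralogs C1rb and C1rl.

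Masp1, a protease of the lectin pathway, was close to the detection limit. Its levels were -4.20 and -4.16 untreated and -4.03 and -4.39 with DEM, and only 1 of the DEM arrays was well above background. The groups overlapped, and the log2 change of -0.03 ± 0.33 (SE) did not pass (limma, adjusted p = 0.955). After normexp background correction the change was 0.43 with an adjusted p of 0.0235, the reverse direction. A second Masp1 probe, at -2.60 on untreated replicate 1 and between -6.62 and -6.38 on the other arrays, was well above background on 1 array and was not tested.

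C4b, the substrate of C1s and a subunit of the classical C3 convertase, had levels of -0.79 and -1.11 untreated and -1.51 and -2.88 with DEM. Both DEM arrays were below both untreated arrays, DEM replicate 2 by more. The log2 change of -1.25 ± 0.46 (SE) did not pass (limma, adjusted p = 0.0934). It was -0.56 without DEM replicate 2 and -1.93 without DEM replicate 1, where the adjusted p was 0.00223, and it passed after normexp correction (change -0.81, adjusted p = 0.0416). The design of the single C4b probe also lists transcripts of C4a, a near-identical gene, so RNA of C4b and C4a cannot be told apart by it. A separate C4a probe was not well above background on any of the 4 arrays. The C4b probe is printed for this reason.
C4b probe: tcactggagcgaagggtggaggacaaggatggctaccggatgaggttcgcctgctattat

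C3, the protein on which all pathways converge, had processed signals of 197020 and 209024 untreated and 56960 and 15692 with DEM, with no saturated spot. As levels these were 8.13 and 8.13 untreated and 6.98 and 5.25 with DEM. The untreated arrays were nearly equal, and the DEM arrays were lower and unlike each other. The log2 change was -2.01 ± 0.52 (SE), 4.04-fold lower (limma, adjusted p = 0.0350). This call was lost without untreated replicate 1 (adjusted p = 0.133), without untreated replicate 2 (0.140), without the filter on dim probes (0.0538) and without an intensity trend in the variance (0.0651), and the change was -1.15 without DEM replicate 2 and -2.88 without DEM replicate 1. A second, dimmer C3 probe was at -1.71 and -1.79 untreated and was not well above background on either DEM array, at least 5.53-fold lower (limma over all kept probes, adjusted p = 0.0016). An "at least" fold sets the bright group's mean against the lowest level that counted as well above background on each dim array, or the dim probe's own level where higher. A p-value beside such a fold tests the difference of the levels as measured, those of the dim arrays included, and not the bound. The second C3 probe, which gave the larger difference, reads as follows.
C3 second probe: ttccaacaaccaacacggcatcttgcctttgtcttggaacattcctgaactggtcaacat

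Cfb, factor B, the protease of the alternative pathway convertase, was at -0.86 and -0.96 untreated and at -3.26 and -4.16 with DEM. The groups were well separated, and 1 of the 2 DEM arrays was well above background. The log2 change was -2.80 ± 0.35 (SE), 6.97-fold lower (limma, adjusted p = 0.00439). With normexp correction the change was -1.54, and the call held in all 14 alternative settings that kept its probe. Cfb had 1 probe, which shared at most 6 bases in a row with the probes of C2, its paralog and neighbour.
Cfb probe: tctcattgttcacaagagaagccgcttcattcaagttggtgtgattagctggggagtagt

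Serping1, C1 inhibitor, which inactivates C1r, C1s and MASP proteases, fell as well. Its levels were 0.97 and 1.10 untreated and -1.40 and -2.24 with DEM, all well above background. No DEM array came near the untreated ones. The log2 change was -2.85 ± 0.31 (SE), 7.22-fold lower (limma, adjusted p = 0.00315), and it passed in all 15 alternative settings run, with changes from -3.27 to -2.39. Its single probe reads as follows.
Serping1 probe: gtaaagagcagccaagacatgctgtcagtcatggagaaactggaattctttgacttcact

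Cd55, decay-accelerating factor, a lipid-anchored protein that dissociates C3 convertases, was at -1.74 and -2.04 untreated and at -5.43 and -4.91 with DEM. Neither DEM array was well above background, so only a bound on the fold exists. Cd55 was at least 5.03-fold lower with DEM (limma, adjusted p = 0.00249). Its probe shares the 26-base run CAGGTGGTGACCGTTATATATATGGA with the probe of Cd55b, the paralog beside it. The Cd55b probe itself was not well above background on any array. After normexp correction the change was -1.11.

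Cd59a, a lipid-anchored protein that blocks the membrane attack complex, had levels of 2.47 and 2.48 untreated and 0.70 and 0.81 with DEM. Here both groups were tight and far apart. The log2 change was -1.72 ± 0.17 (SE), 3.30-fold lower (limma, adjusted p = 0.00257). Spike-in scaling gave a change of -1.88 with an adjusted p of 0.134 (limma). A second Cd59a probe gave 0.46 and 0.50 untreated against -2.19 and -0.70 with DEM, a change of -1.92 ± 0.47 (SE; adjusted p = 0.0298, limma over all kept probes).

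**Figure D2:**
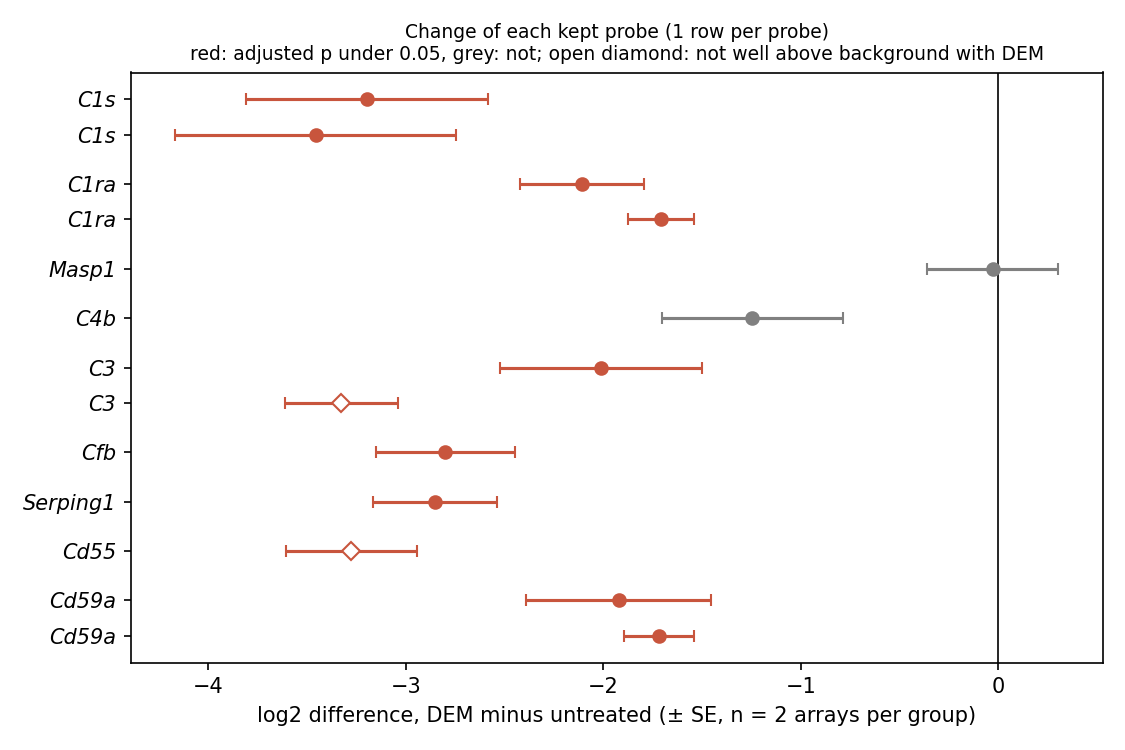
Log2 change (DEM minus untreated) of each kept probe of the 9 complement genes, with bars for the standard error from the limma fit over all kept probes. All 4 genes with more than 1 kept probe (C1s, C1ra, C3 and Cd59a) have their probes on the same side of 0, and Masp1 lies at 0.

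The DEM arrays differed from each other in these genes. DEM replicate 2 was below DEM replicate 1 in 7 of the 9 genes, against 46.7% of all genes tested. The gap was -2.06 for C1s, as large in either direction in 1.26% of all genes, -1.73 for C3 (2.32%) and -1.37 for C4b (4.50%). By the brightest kept probe of each gene, used for all these gaps, those 3 were the genes with a gap over 1, which 8.76% of all genes had. Second probes did not always match. That of C1s was at -0.37 on DEM replicate 1 and -2.78 on DEM replicate 2, but that of Cd59a at -2.19 and -0.70. The second C3 probe, dim on both DEM arrays, was at -4.96 and -5.20. Cfb and Serping1 had gaps of -0.90 and -0.84, and C1ra, Cd59a, Masp1 and Cd55 were nearer, at -0.15, 0.12, -0.36 and 0.52. Between the untreated arrays the widest gap among the 9 genes, by the same brightest kept probes, was -0.32, in C4b.

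**Figure D3:**
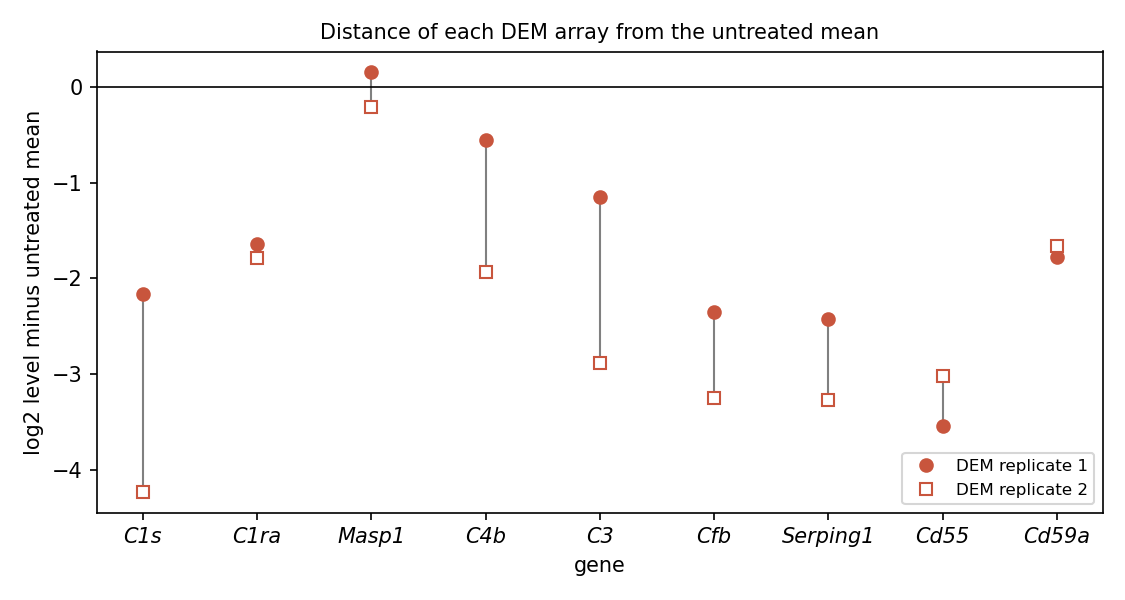
Each DEM array's log2 difference from the untreated mean for the 9 complement genes, each by its brightest kept probe. DEM replicate 2 lies further down than DEM replicate 1 for C1s (-4.23 against -2.16), C3 (-2.88 against -1.15) and C4b (-1.93 against -0.56), while both arrays nearly coincide for C1ra and Cd59a.

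Promoter sequence was at hand from RefSeq (GRCm38.p6) for 5 of the 9 genes, in 6 promoters of 250 bases before the start site: C3, C1ra, C1s (listed as C1s1, with 2 starts), Cd55 and Cd59a. C4b, Cfb, Serping1 and Masp1 had no entry. Motifs were searched on both strands: the interferon response element (GAAA, any 2 bases, GAAA), the STAT site TTCNNNGAA, the NF-kB site, the C/EBP site TTGCNNAA, the antioxidant response element TGACNNNGC and the TATA box TATAAA. The 3 promoters with a match are printed 5′ to 3′ on the gene's strand, with the match in capitals.
C3 promoter, chr17:57228137-57228386, minus strand: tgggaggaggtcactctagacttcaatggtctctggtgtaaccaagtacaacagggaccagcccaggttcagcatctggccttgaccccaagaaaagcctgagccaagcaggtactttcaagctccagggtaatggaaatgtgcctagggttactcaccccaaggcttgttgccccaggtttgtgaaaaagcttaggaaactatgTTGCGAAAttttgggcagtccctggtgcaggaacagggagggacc
C1s1 promoter, upstream start, chr6:124542360-124542609, minus strand: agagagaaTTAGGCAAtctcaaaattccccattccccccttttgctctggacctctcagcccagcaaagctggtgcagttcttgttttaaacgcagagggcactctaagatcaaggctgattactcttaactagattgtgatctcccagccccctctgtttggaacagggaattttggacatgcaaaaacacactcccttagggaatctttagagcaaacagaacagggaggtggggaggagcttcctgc
Cd59a promoter, chr2:104095551-104095800, plus strand: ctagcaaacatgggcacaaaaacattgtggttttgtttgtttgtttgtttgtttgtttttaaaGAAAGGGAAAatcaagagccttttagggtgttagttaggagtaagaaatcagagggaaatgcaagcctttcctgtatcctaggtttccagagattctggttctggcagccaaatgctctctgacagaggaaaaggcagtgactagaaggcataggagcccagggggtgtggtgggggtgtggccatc

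In C3 the C/EBP match spans positions -45 to -38 from the start site. In C1s1 a C/EBP match on the opposite strand spans -242 to -235, and in Cd59a an interferon response element match spans -187 to -178. C/EBP matches thus occurred in 2 of the 6 promoters and in 9.56% of the 32851 RefSeq promoters of the same length, and the interferon element in 1 of 6 and in 2.98%. STAT sites (7.02% of all promoters), NF-kB sites (3.9%), antioxidant response elements (10.2%) and TATA boxes (12.4%) had no match in the 6 windows. These are letter matches, and no binding was measured.

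Of the 9 genes, Cd55 lies on chromosome 1, Serping1 and Cd59a on chromosome 2, Masp1 on chromosome 16, and C3, C4b and Cfb on chromosome 17, the last pair in the MHC class III region. C1ra and C1s stand side by side on chromosome 6, in the RefSeq gene order C1rl, C1ra, C1s1, C1rb, C1s2. All 5 of these serine protease genes fell with DEM, where 11.8% of all genes tested were called lower. C1ra and C1s are already counted among the 9. The changes of the 4 measured in both groups ran from -3.20 (C1s) to -1.57 (C1rl). C1rb, a C1ra paralog, went from 0.80 and 0.75 untreated to -1.19 and -1.82 with DEM, a change of -2.28 ± 0.26 (SE; limma, adjusted p = 0.00364). C1rl, a C1r-like protease gene, went from 1.44 and 1.60 to -0.23 and 0.12, a change of -1.57 ± 0.21 (SE; adjusted p = 0.00535), and C1s2 was at least 5.01-fold lower (adjusted p = 0.0086). The genes flanking the cluster did not pass: Pex5 at 0.38 and Clstn3 at -0.17 on one side, and Lpcat3 at -0.72 (adjusted p = 0.0552) on the other. The cluster was singled out after its values were seen, and its count of 5 was 3 without untreated replicate 1, 2 without untreated replicate 2 and 3 with spike-in scaling.

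Among 49 other complement genes listed, 48 were on the array and 20 passed the filter. Of these 20, 8 fell (40%), 4 rose (20%) and 8 did not pass the test. Among all genes tested 11.8% were called lower and 15.5% higher, so the share that rose was near that of all genes. The median log2 change was -0.61 against 0.16 over all genes tested. Among those that fell were C1rb, C1rl, C1s2, Colec10, C8g, C4bp and Clu, and Cfp, Cfi, C1qbp and Csmd3 rose. Without untreated replicate 1 the counts were 3 lower and 1 higher, without untreated replicate 2 they were 2 and 1, and with spike-in scaling 8 and 0. C1rb and C4bp were called lower, and Cfi higher, when either untreated array was left out.

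Soluble regulators moved in both directions. C4bp, C4b-binding protein, went from 0.97 and 0.59 untreated to -2.01 and -2.93 with DEM, a change of -3.24 ± 0.35 (SE; limma, adjusted p = 0.00303). Clu, clusterin, which binds terminal complement proteins, went from 5.67 and 6.00 untreated to 4.37 and 3.11 with DEM. Its change was -2.10 ± 0.40 (SE; limma, adjusted p = 0.0153). That change was -1.46 without DEM replicate 2 and -2.73 without DEM replicate 1. Cfi, factor I, the protease that cuts C3b and C4b, rose from -0.25 and -0.79 to 1.56 and 1.53, a change of 2.06 ± 0.24 (SE; adjusted p = 0.0036). C1qbp, a mitochondrial protein that can bind C1q, rose by 0.65 ± 0.16 (SE; adjusted p = 0.0316), a call lost under quantile normalization (adjusted p = 0.117), cyclic loess (0.126), scaling on detected probes (0.0748) or spike-ins, without a variance trend (0.0704), and without DEM replicate 1 (0.0573), untreated replicate 1 (0.149) or untreated replicate 2 (0.193).

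Of the remaining pathway genes, Cfp, properdin, which stabilises the alternative convertase, rose from -0.43 and -0.19 to 1.19 and 0.64, a change of 1.23 ± 0.25 (SE; limma, adjusted p = 0.0182). Colec10, a lectin pathway collectin, was at least 4.01-fold lower (adjusted p = 0.0255). C8g, the gamma chain of C8, was at least 6.40-fold lower (adjusted p = 0.0072). Csmd3, a membrane protein with complement control domains, was at least 1.96-fold higher (adjusted p = 0.0154). C2, cleaved by C1s, had a change of -0.36 ± 0.35 (SE; adjusted p = 0.490), and was at 0.28 after normexp correction. Of the 28 listed genes on the array that did not pass the filter, 25 were dim on all arrays, among them C1qa, C1qc, Mbl1, Mbl2, Cfd, C8a, C8b and C9.

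**Figure D4:**
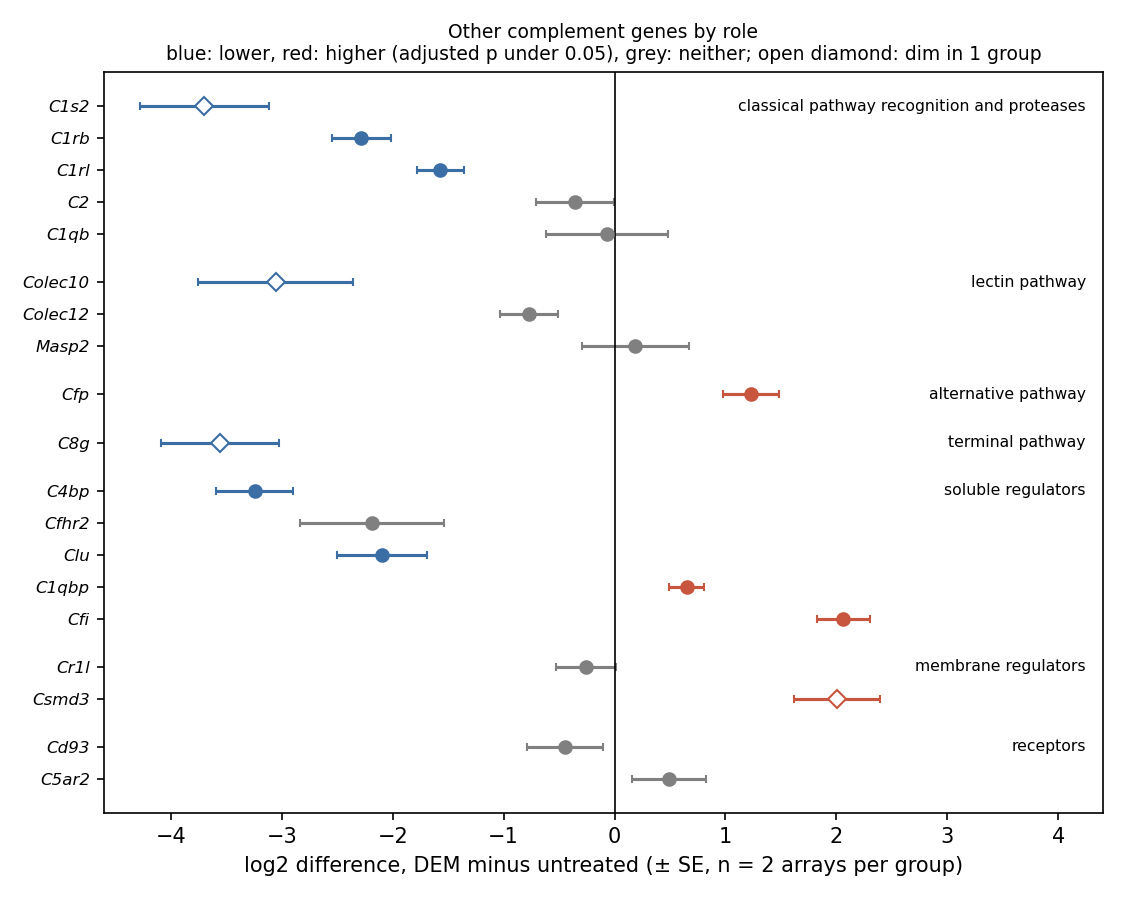
Log2 change (DEM minus untreated) of the measured complement genes that are not among the 9, all but 1 of the 20, with bars for the standard error from limma. C4bp, C1s2 and C8g lie furthest to the lower side and Cfi furthest to the higher side; open diamonds are genes dim in 1 group, whose fold has only a bound.

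Markers of other cells were checked beside these results. Of 11 macrophage markers, Adgre1, Ptprc, Itgam, C1qa and C1qc were not well above background on any array, while Cd68, Cd14, Lyz2, Aif1 and C1qb were on all 4. Of 5 measured, Lyz2 fell by 1.85 (limma, adjusted p = 0.0141) and the other 4 did not pass. The log2 of the summed level of the list was 2.24 and 2.53 untreated and 2.33 and 2.81 with DEM. Such a sum follows the brightest probes of a list and includes probes not well above background. It therefore does not measure the share of a cell type. Of 7 hepatocyte markers on the array, 5 (Ttr, Apoa1, Ahsg, Fga and Fgb) were not well above background on any array. Tat was well above background on all 4 and did not pass, with a change of 0.65. After normexp correction it was called higher, at 0.67. The summed level of the hepatocyte list was -2.60 and -2.02 untreated and -2.14 and -2.04 with DEM. Endothelial Cdh5, Kdr and Cldn5 and epithelial Cdh1, Krt18 and Cldn4 were likewise not well above background on any array. Endothelial Tek was detected on both untreated arrays and on neither DEM array. Its bound was at least 1.23-fold lower, while the p-value tests the measured change of -2.27 (limma, adjusted p = 0.0114). Epithelial Krt8, detected on all 4 arrays, did not pass. The summed level was -2.83 and -2.41 against -2.26 and -3.33 for 6 endothelial markers, and -2.68 and -2.63 against -3.01 and -2.76 for 5 epithelial markers. Of 10 fibroblast markers, 6 fell with DEM, 0 rose and 4 did not pass, where 11.8% of all genes tested were called lower and 15.5% higher. Their median change was -1.12 (-0.74 with Lum, dim on both DEM arrays, at its bound). Their summed level was 10.60 and 10.65 untreated against 9.72 and 10.29 with DEM. Col3a1 changed by -2.76 and Pdgfrb by -1.81, while Col1a1 stood at -0.04 and Thy1 at 0.23. The count of 6 was 2 without untreated replicate 1, 3 without untreated replicate 2 and 3 with spike-in scaling. The part of this in the complement result was not tested.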

How the data were processed

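RNA (500 ng per sample, per the labels) was hybridised to 1-colour Agilent arrays, 2 untreated and 2 DEM. Spot intensity was read, per the file headers, with the scanner maker's Feature Extraction software, version 10.7.3.1, under protocol GE1_107_Sep09 and after background subtraction. A series table of log2 values deposited by the authors was within 0.01 of log2 intensity minus a constant near the 75th percentile for at least 99.94% of probes, and served as an alternative.

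Each array had 62976 spots; 1319 controls and 130 probes with outlier marks were left out, and no spot was saturated. Processed intensity was put on a log2 scale, minus each array's 75th percentile. A probe had to be well above background on 2 or more of the 4 arrays (31771 probes); each gene was represented by its brightest one. Groups were fitted by limma (3.58.1; R 4.3.3, with Python 3.11.15, pandas 2.3.3 and matplotlib 3.10.9 for the rest): lmFit and eBayes with an intensity trend, 2 residual and 4.03 prior degrees of freedom, two-sided, Benjamini-Hochberg over 24658 genes. The script was tested on simulated data. Symbols came from RefSeq (GRCm38.p6): 28136 probes by accession, 4982 by symbol, 1406 by synonym; 26783 kept the file's name. Precision is limited by the number of arrays.

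The 9 genes and all lists were chosen with earlier results of these data known. Named genes were the 9, other complement genes that passed, C2, Clu and C1qbp, and at most 4 genes of smallest p per other list; exceptions (flanking genes, undetected genes, and Col1a1, Col1a2, Vim, Thy1 and Pdgfra as marker levels) were named after their values were seen. Some genes that the rule names are not reported here. Alternatives were normexp (offset 50), quantile, cyclic loess, detected-probe and spike-in scaling (7 probes), deposited values, dim-probe filters, mean of probes, no trend, a replicate block and leaving out each array.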

Additional observations from a re-analysis of the deposited data

How the results depend on the processing

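Cd55, Cfb and Serping1 passed in every alternative that kept their probe. Of the 9 genes, 7 were called lower; alternatives gave 5 (spike-in scaling, and well above background on all 4 arrays, which kept 6 of the genes) to 8 (normexp), and leaving out 1 array gave 5 to 8. Normexp called 1 of the 9 higher, Masp1 at 0.43; with 1 array left out Masp1 ranged from -0.21 to 0.15, the latter without DEM replicate 2. Over all genes, 3812 were called higher: 6462 with normexp, 2529 with cyclic loess, 363 with spike-in scaling, 17297 without the filter on dim probes and 644 to 4488 with 1 array left out. Lower calls numbered 2900, with 889 under spike-in scaling and 802 to 3814 with 1 array left out. Of called genes 56.8% were higher, against 70.0% (normexp), 46.6% (quantile), 40.9% (cyclic loess), 42.1% (percentile over detected probes), 29.0% (spike-in) and 84.7% (no filter). The median of all genes shifted by -0.15 with cyclic loess, -0.16 with the detected percentile, -0.16 with spike-in scaling and 0.31 without the filter, against a median of -2.88 to -1.67 over the 9 genes. Other complement genes called higher (4) were 0 with spike-in scaling, 21 without the filter and 1 to 4 with 1 array left out; those called lower (8) were 2 to 10 with 1 array left out. The 48 other complement genes tested without the filter included 25 not well above background on any array. For such genes a higher level is not a measured rise. The cause of the differences between settings was not tested. Replicate numbers were shared between groups. Deviations of same-numbered arrays had a correlation of 0.08. Set against the spike-in probes (log2), the percentile used for scaling lay at -2.76 on untreated replicate 1 and -2.79 on DEM replicate 1. It lay at -3.41 on untreated replicate 2 and -3.70 on DEM replicate 2, so same-numbered arrays were alike in this offset. Whether the numbers stand for shared handling was not tested. With a replicate block 8 of the 9 genes were called lower, C4b included (limma, adjusted p = 0.0218). Signal over background limits Masp1, Cfb and Cd55, which were at or near the detection limit with DEM.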

Other observations

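Acute phase genes that fibroblasts can make were lower beside the complement genes. Of 15 listed, 11 were measured: 9 fell (81.8%) and 0 rose (limma, adjusted p under 0.05). Among all genes tested, 11.8% were called lower and 15.5% higher. The median log2 change was -2.26 against 0.16 over all genes tested. With spike-in scaling 7 of the 11 were called lower. Ptx3, a soluble pattern recognition protein that binds C1q, went from 4.19 and 4.01 untreated to a DEM mean of 1.84, a change of -2.26 ± 0.22 (SE; limma, adjusted p = 0.00234). Serpina3g, a serine protease inhibitor, changed by -5.29 (adjusted p = 0.00065). Hp, haptoglobin, was at least 9.26-fold lower and Steap4, a metalloreductase, at least 13.0-fold lower. Without untreated replicate 1 the count was 6, and without untreated replicate 2 it was 7.

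Of 14 measured transcription factors known to act on complement genes, 6 fell and 2 rose, with a median change of -0.28; among all genes tested 11.8% were called lower and 15.5% higher. Irf7 changed by -4.31, Irf9 by -1.73 and Cebpd by -1.25. With DEM Irf7 was near the detection limit, well above background on only 1 of the 2 arrays, and its change was -2.91 after normexp correction. The 2 that rose, named after their values were seen, were Cebpb (1.11, adjusted p = 0.0296) and Rela (0.65, adjusted p = 0.0385; limma). The 6 lower calls were 1 without untreated replicate 1, 2 without untreated replicate 2 and 1 with spike-in scaling, and the 2 higher calls were 0 in each of these, as well as under quantile normalization, cyclic loess, scaling on detected probes and no variance trend. In the MHC class III region, where C4b and Cfb lie, 2 of 13 measured neighbours (15.4%, near the 11.8% of all genes) fell (Tnxb at -1.78 and Zbtb12 at -0.78) and 0 rose, with a median change of 0.03; leaving out either untreated array gave 0 lower.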
